A study of Mus musculus with 6 samples.

Results

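The subject here is the haemoglobin genes of the mouse as they appear on shared array probes, measured in platelets and in megakaryocyte progenitors. Probes were taken where the annotation of the value table names 1 of 10 listed genes, alone or beside other symbols, and 7 of 72688 probes met this rule. They name 9 of the 10 genes, of 33786 gene symbols on the array in all, and Ahsp, which encodes a chaperone of free alpha chains, was not analysed here. On 4 of the 7 probes several members share 1 signal, and 3 probes name a single member.

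Haemoglobin is the oxygen carrier of red cells, a tetramer of alpha-type and beta-type chains that each hold a haem group. In the mouse the alpha-type genes lie in 1 cluster and the beta-type genes in another, and within each cluster an embryonic gene gives way to adult genes during development. Red cell precursors in the bone marrow make the chains in great amounts, and reticulocytes, the youngest red cells in blood, still carry globin mRNA after the nucleus is gone. The adult alpha genes are Hba-a1 and Hba-a2. The adult beta genes are Hbb-bs and Hbb-bt in strains with the single haplotype, the 1 in the reference genome, and Hbb-b1 and Hbb-b2 in strains with the diffuse haplotype. Hba-x (zeta), Hbb-y (epsilon-y) and Hbb-bh1 (beta-H1) encode chains of primitive red cells of the embryo.

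The samples were 6 Clariom D Mouse arrays, 3 of platelets from blood and 3 of bone marrow cells labelled megakaryocyte progenitors. In each cell type 1 array came from the CTC41.5G-EVs group, 1 from the CTC41-EVs group and 1 from the PBS control group, where EVs commonly stands for extracellular vesicles, the membrane particles that cells shed. Each array held a pool from several mice, which leaves every group with 1 array, and the sources used here name no strain, sex, age, number of mice, dose or time. Per the labels' protocols, pools were either used directly or first cleared of white and red blood cells on beads, and the labels do not say which pool had which handling. In these bulk pools, a change in the number of cells of a type and a change in RNA per cell cannot be told apart.

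Both alpha probes name the pair Hba-a2;Hba-a1, and the annotation repeats 1 of the symbols. The probe TC1100000336.mm.1, with Hba-a1 repeated, is called Hba(a1) here, and TC1100000339.mm.1, with Hba-a2 repeated, is called Hba(a2). Both adult beta probes name Hbb-bs, Hbb-bt, Hbb-b1 and Hbb-b2. TC0700003908.mm.1 repeats Hbb-bt and is called Hbb(bt), and TC0700003909.mm.1 repeats Hbb-bs and is called Hbb(bs). These 4 are the adult globin probes, and their short names do not show which of the named genes gave the signal. The probes of Hba-x (TC1100000335.mm.1), Hbb-y (TC0700003914.mm.1) and Hbb-bh1 (TC0700003912.mm.1) name 1 gene each.

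The upstream sequences show how alike the adult copies are and how the embryonic genes differ from them. RefSeq's promoter table (GRCm38.p6) held 6 of the 10 genes, and the 250 bases before the gene start are used. For Hba-a1 (chr11:32283422-32283671, plus strand) and Hba-a2 (chr11:32296242-32296491, plus strand) the alignment held 247 identical bases, 0 mismatches and 6 unpaired bases, which come from a shift of the window, so only Hba-a1 is printed. Hbb-bs (chr7:103827929-103828178, minus strand) and Hbb-bt (chr7:103813924-103814173, minus strand) were identical in 185 aligned bases with 54 mismatches and 22 unpaired bases, or 70.9% of the alignment. Hba-x (chr11:32276350-32276599, plus strand) shared 52.8% with Hba-a1, and Hbb-y (chr7:103853208-103853457, minus strand) shared 53.0% with Hbb-bs. Pairs from different clusters shared 48.3% (Hba-x with Hbb-y) to 53.1% (Hba-x with Hbb-bt), so both values lie within the range of such pairs. Sequences are given 5′ to 3′, with capitals for matches on either strand to the motifs searched. The TATA box was read as TATAA. The box bound by the factor NF-Y was read as CCAAT. The box bound by the erythroid factor Klf1 was read as CACCC. The motif of GATA factors was read as GATAA or as its variant with a final G, each after an A or a T. In Hbb-bt a minus-strand and a plus-strand CCAAT match adjoin and appear as 1 run of capitals.
Hba-a1: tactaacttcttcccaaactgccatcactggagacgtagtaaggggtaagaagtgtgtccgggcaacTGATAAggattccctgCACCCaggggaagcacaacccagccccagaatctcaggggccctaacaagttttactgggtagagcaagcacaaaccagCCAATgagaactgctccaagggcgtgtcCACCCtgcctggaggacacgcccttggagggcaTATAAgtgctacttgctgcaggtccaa
Hbb-bs: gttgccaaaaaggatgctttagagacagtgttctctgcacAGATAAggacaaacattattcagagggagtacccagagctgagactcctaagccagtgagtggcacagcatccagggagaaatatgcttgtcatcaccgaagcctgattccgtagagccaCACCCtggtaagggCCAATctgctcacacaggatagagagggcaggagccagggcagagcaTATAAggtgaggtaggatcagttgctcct
Hbb-bt: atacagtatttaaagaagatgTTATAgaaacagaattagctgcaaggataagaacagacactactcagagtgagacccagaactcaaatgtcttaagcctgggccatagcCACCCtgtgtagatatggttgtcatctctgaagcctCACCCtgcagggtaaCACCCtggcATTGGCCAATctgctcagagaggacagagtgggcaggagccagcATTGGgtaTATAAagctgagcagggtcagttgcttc
Hba-x: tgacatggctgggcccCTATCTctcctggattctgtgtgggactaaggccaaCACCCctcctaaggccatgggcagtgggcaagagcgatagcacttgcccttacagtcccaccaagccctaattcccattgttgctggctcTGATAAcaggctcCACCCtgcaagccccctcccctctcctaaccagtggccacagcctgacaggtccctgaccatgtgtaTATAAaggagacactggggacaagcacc
Hbb-y: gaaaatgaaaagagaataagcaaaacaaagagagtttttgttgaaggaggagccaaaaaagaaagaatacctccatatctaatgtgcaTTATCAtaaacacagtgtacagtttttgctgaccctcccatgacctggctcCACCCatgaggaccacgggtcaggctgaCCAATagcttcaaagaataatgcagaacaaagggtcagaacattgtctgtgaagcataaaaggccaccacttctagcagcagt
The adult genes Hba-a1, Hba-a2 and Hbb-bs each held all 4 kinds of motif, with TATAA 27, 30 and 29 bases before the gene start. Hbb-bt had TATAA 28 bases before the start, 3 CACCC and 3 CCAAT matches and no GATA match in this window. Hba-x had no CCAAT match and Hbb-y no TATAA match. Among 32536 mouse promoters of the same length, 22.7% held TATAA, 33.8% CCAAT, 52.1% CACCC and 26.5% a GATA motif. TGANTCA, the core of the NF-E2 site, had a match in 6.73% of promoters and in 0 of these 6.

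Signals are log2 values as deposited, with a median over all probes of at most 4.05 on platelet arrays and at least 4.38 on progenitor arrays. The labelled cell types were checked against markers. Of 12 platelet and megakaryocyte markers, 12 rose in platelets, against 12.8% of all probes tested. Their summed signal (log2) was 14.14 to 14.65 on platelet arrays and 9.19 to 9.32 on progenitor arrays. On the progenitor arrays 10 of these 12 markers had means that reached the floor of the test, among them Itga2b at 6.51 and Pf4 at 6.44. Clec1b and P2ry12 lay below it there, at means of 3.95 and 3.72. The 13 neutrophil markers had a summed signal of 10.86 to 11.04 on progenitor arrays, against 8.84 to 9.07 on platelet arrays. The part of other cells in the progenitor values was not tested.

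The first comparison asked how globin signals differed between platelets and progenitors over the 3 treatments. Transcripts of adult haemoglobin were among the strongest signals of the platelet arrays and stood far above the progenitor arrays. Of the embryonic genes, Hbb-y was called higher in platelets, by far less than the adult globin probes, and Hba-x was not called. The Hbb-y difference was under 1.5-fold without either CTC41.5G-EVs array.

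The Hba(a1) probe read 13.38, 13.52 and 12.29 in platelets (CTC41.5G-EVs, CTC41-EVs and PBS) and 6.48, 6.38 and 6.23 in progenitors in the same order of treatments, all as log2 signals. The Hba(a2) probe read 13.68, 13.83 and 12.71 in platelets and 6.37, 6.14 and 5.93 in progenitors. The cell types did not overlap on either alpha probe, and in platelets the PBS array was the lowest of the 3. The beta probe Hbb(bt) read 13.34, 13.43 and 12.29 in platelets and 5.63, 5.77 and 5.23 in progenitors. The second beta probe, Hbb(bs), read 10.93, 10.83 and 10.54 in platelets and 5.35, 5.53 and 5.15 in progenitors. Again all 3 platelet arrays lay above all 3 progenitor arrays, and the PBS array was the lowest in each cell type on both beta probes. Of all probes tested, 18.3% showed platelets entirely above progenitors and 57.6% showed them entirely below.

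**Figure D1:**
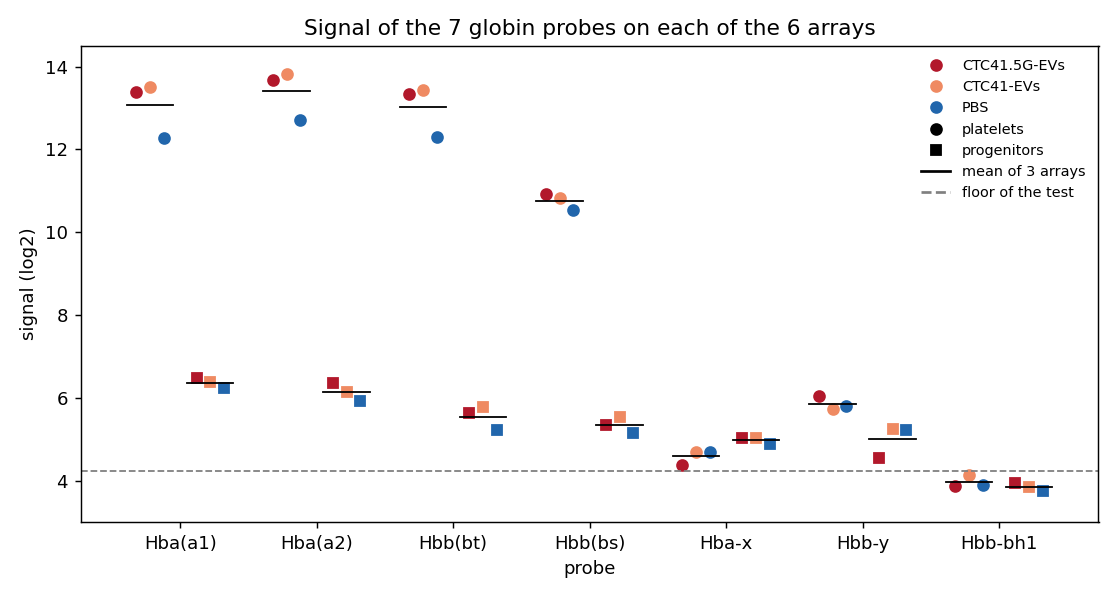
Log2 signal of the 7 globin probes on each of the 6 arrays, with circles for platelets, squares for progenitors, colour for treatment, a bar at the mean of 3 arrays and a dashed line at the floor of the test (4.23). The 4 adult globin probes lie between 10.54 and 13.83 on platelet arrays and between 5.15 and 6.48 on progenitor arrays, while Hba-x, Hbb-y and Hbb-bh1 lie between 3.76 and 6.04.

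A rank places a signal within its array and is no measure of transcript amount, since probes differ in how well they bind. Among 72688 probes, Hba(a2) ranked 6, 5 and 8 on the platelet arrays (CTC41.5G-EVs, CTC41-EVs and PBS), Hba(a1) ranked 7, 8 and 60, and Hbb(bt) ranked 9, 9 and 59. Hbb(bs) ranked 246, 220 and 318. The EV arrays held 3 adult globin probes among their first 9 ranks, and the PBS array held 1. On the progenitor arrays the ranks of the 4 probes ran from 4878, for Hba(a1) with CTC41.5G-EVs, to 19119, for Hbb(bs) with PBS.

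The difference was tested with limma, in a model with additive terms for cell type and treatment and 2 residual degrees of freedom, over the 36344 probes whose mean reached the median of all probes. Calls required a difference of 1.5-fold or more and a p of 0.05 or less after Benjamini-Hochberg adjustment. Over all probes tested, 12.8% were called higher and 35.1% lower in platelets. Of the 7 globin probes 6 reached the floor, and of these 5 were called higher and 0 lower. An adult globin probe with a progenitor-like level on every array would also have reached the floor.

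Hbb(bt) averaged 13.02 ± 0.63 in platelets and 5.54 ± 0.28 in progenitors (SD, n = 3 arrays that differ in treatment), a log2 difference of 7.47 with SE 0.20, or 178-fold (limma, adjusted p = 7.99e-05). Hba(a2) averaged 13.41 ± 0.61 and 6.15 ± 0.22 in the same order, a difference of 7.26 with SE 0.22, or 153-fold (limma, adjusted p = 7.99e-05). Hba(a1) averaged 13.06 ± 0.67 in platelets and 6.36 ± 0.12 in progenitors, a difference of 6.70 with SE 0.25, or 104-fold (limma, adjusted p = 9.53e-05). These differences ranked 3, 4 and 10 among all probes tested, from the largest rise in platelets downwards. Hbb(bs) averaged 10.77 ± 0.20 in platelets and 5.35 ± 0.19 in progenitors, a difference of 5.42 with SE 0.16, or 42.9-fold, and ranked 42 (limma, adjusted p = 7.99e-05). The 2 beta probes name the same 4 genes, and their differences were 178-fold and 42.9-fold. Leaving out each array in turn gave log2 differences of 5.34 to 7.68 over the 4 adult probes. In this model either array of a treatment gave the same difference when left out, so each probe had 3 distinct estimates.

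The embryonic genes behaved otherwise. Hbb-y, the epsilon-type gene of the beta cluster, read 6.04, 5.74 and 5.80 in platelets and 4.55, 5.25 and 5.22 in progenitors, in the order CTC41.5G-EVs, CTC41-EVs and PBS. The cell types did not overlap, and the CTC41.5G-EVs array was the highest in platelets and the lowest in progenitors. Its difference was 0.85 with SE 0.22, or 1.81-fold (limma, adjusted p = 0.0163), and without either CTC41.5G-EVs array it was 0.53, under 1.5-fold. Hba-x, the zeta gene of the alpha cluster, read 4.39, 4.70 and 4.70 in platelets and 5.04, 5.03 and 4.89 in progenitors. Its difference of -0.39 (SE 0.12, limma, adjusted p = 0.0303) was under 1.5-fold and not called, and it became 0.33 when olfactory receptor genes were used to centre the arrays. Hbb-bh1 read 3.88, 4.13 and 3.90 in platelets and 3.95, 3.85 and 3.76 in progenitors, below the floor on average, so it was not tested.

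Other members of the globin family were set beside these, from a list of 10 genes of which 9 were measured. Of these 9, limma called 4 higher and 2 lower in platelets, with a median difference of 0.05, against -0.38 over all probes tested. The shares of all probes called were 12.8% higher and 35.1% lower. Hba-ps4, an alpha globin pseudogene, averaged 9.45 in platelets and 6.10 in progenitors, a difference of 3.35 (SE 0.15, adjusted p = 0.000112). The theta globin genes Hbq1a and Hbq1b, neighbours of the adult alpha genes, rose by 1.94 (SE 0.13) and 1.51 (SE 0.12), and cytoglobin, Cygb, by 0.59 (SE 0.12). Myoglobin, Mb, fell by 0.80 (SE 0.12) and neuroglobin, Ngb, fell by 0.70 (SE 0.11), and neither was called with arrays scaled to the same median or centred on olfactory receptor genes, nor Ngb after quantile normalization. A pseudogene probe may also bind transcripts of the near-identical functional genes, so the source of the Hba-ps4 signal is uncertain.

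Haem, the group that the chains bind, is built by a chain of enzymes. Of all probes tested 12.8% were called higher in platelets and 35.1% lower. Of the measured haem synthesis genes 2 of 12 rose, near the first share (median of the list -0.11). These were Fech, which inserts iron into the ring, at 9.16 in platelets and 4.30 in progenitors, a difference of 4.86 (SE 0.17), and Alas2, the first enzyme of the erythroid pathway, at 9.85 and 5.10, a difference of 4.75 (SE 0.14). The intermediate enzymes Uros, Urod, Cpox, Ppox and Alad were not called, with differences from -0.52 to 0.40. Of 10 tested genes of erythroid iron uptake and handling, 5 rose and 3 fell (median 0.75). The ferritin chains Fth1 and Ftl1 rose by 3.31 (SE 0.26) and 2.67 (SE 0.16), and the mitochondrial iron importer Slc25a37 by 2.95 (SE 0.15). Slc11a2 (an iron transporter) fell by 0.82, Steap3 (an iron reductase) fell by 0.68 and Tfr2 (a transferrin receptor) fell by 0.65, and none of these 3 was called lower under any other scaling.

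Genes of the red cell membrane rose in 6 of 17 cases and fell in 0 (median 0.24), against 12.8% and 35.1% of all probes tested. The anion exchanger Slc4a1, band 3, rose by 2.17 (SE 0.16), the water channel Aqp1 by 1.87 (SE 0.15) and the complement inhibitor Cd59a by 1.39 (SE 0.14). Ank1 (0.38), Rhag (0.56) and Kel (0.11) were not called. Among red cell enzymes and maturation genes 9 of 17 rose and 0 fell (median 1.10), led by catalase, Cat (5.12, SE 0.18), the mitophagy receptor Bnip3l (3.80, SE 0.17) and Trim10, which takes part in terminal erythroid differentiation (2.25, SE 0.14). Several of these genes are also used by platelets or other cells, so the lists do not mark red cells alone. Other scalings shift every difference: the median over all probes tested was -0.06, -0.00 and 0.34 after quantile normalization, with equal medians and with olfactory receptor centring, against -0.38 as deposited. The haem synthesis list then had medians of 0.23, 0.26 and 0.60 with 2, 3 and 6 genes called higher, and the membrane list 9, 9 and 11. Of the enzyme and maturation list 13, 14 and 15 genes were called higher in these settings.

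Of 15 tested regulators of globin genes, 6 rose in platelets and 1 fell (median 0.28). Nfe2, a subunit of a factor that binds the beta globin control region, rose by 2.16 (SE 0.10), Bach1, a haem-sensitive repressor, by 1.82 (SE 0.11), and Eif2ak1, the haem-regulated kinase that limits globin translation, by 1.58 (SE 0.09). Myb fell by 0.93 (SE 0.10), under 1.5-fold in each of the 3 other scalings. Gata1 differed by -0.01 (SE 0.10), Zbtb7a by 0.17 (SE 0.10) and Bcl11a, a repressor of fetal globin in humans, by -0.39 (SE 0.13), and none of these was called. Klf1, the activator that binds CACCC boxes, averaged 4.18 in platelets and 4.21 in progenitors, below the floor. Among marker lists of other blood cells, 2 of 12 monocyte and macrophage genes rose in platelets, near the share of all probes (12.8%). These were Lyz2 by 2.94 (SE 0.16) and Ly6c2 by 0.94 (SE 0.12). Over all probes tested 35.1% were called lower. Of 13 neutrophil markers 10 fell, of 5 tested B lymphocyte markers 3 were called lower, and of 5 tested T and NK lymphocyte markers 0 were called. These counts depended on scaling. After quantile normalization, with equal medians and with olfactory receptor centring, 5, 5 and 8 of the 12 monocyte and macrophage genes were called higher, and 8, 8 and 12 of the 15 globin regulators. In the same settings 10, 10 and 7 neutrophil markers were called lower, and 1 B lymphocyte marker in each, Vpreb2, while Cd79a and Cd79b were no longer called. With olfactory receptor centring 1 neutrophil marker and 1 T and NK lymphocyte marker were called higher.

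**Figure D2:**
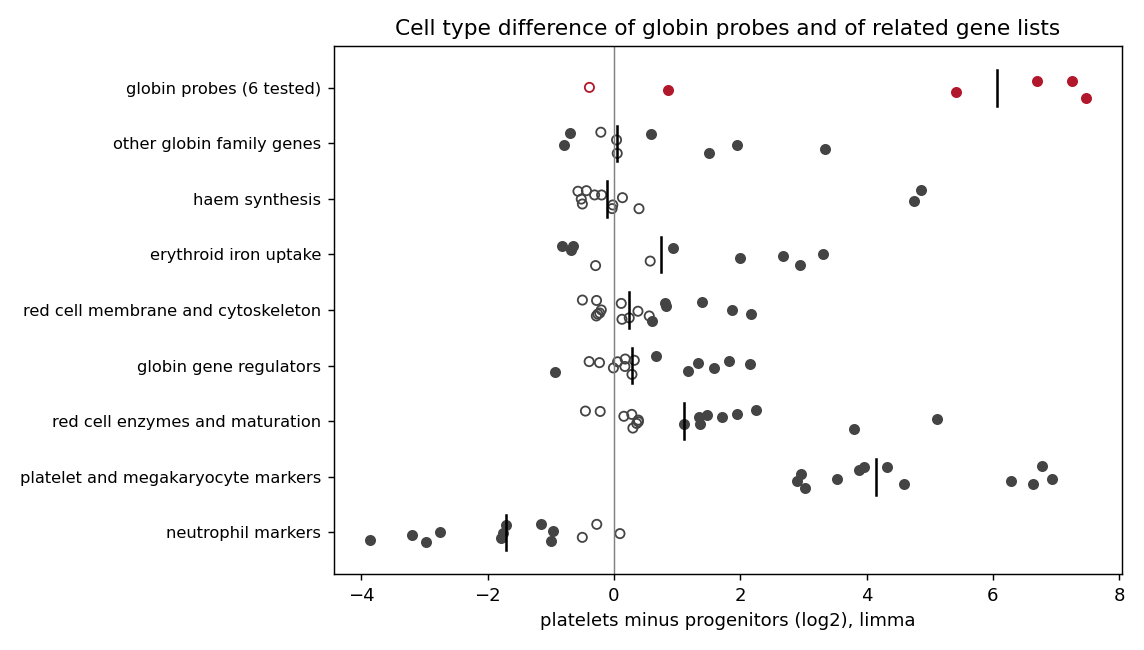
Log2 difference, platelets minus progenitors, from the limma fit for the 6 globin probes tested and for the tested genes of 8 lists; each point is a probe, filled where called, and the bar is the median. The 4 adult globin probes lie at 5.42 to 7.47, beyond every gene of the haem and red cell lists, whose largest value is 5.12, and within or above the range of platelet markers, whose largest is 6.94.

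The probes nearest in pattern to the adult globins were those with a rise in platelets of like size. Likeness was the root mean square distance, over the 6 arrays, between values centred on their own mean and the mean of the 4 adult globin probes, taken over 9851 probes that name 1 gene and whose mean reached the 75th percentile. The nearest were Pf4, platelet factor 4 (distance 0.261), Ppbp, a chemokine precursor (0.262), Ctla2a (0.277), Ctla2b (0.297) and Clec1b, the receptor CLEC-2 (0.339). The globin probes themselves lay 0.0999 to 0.676 from their own mean. The globin probe Hbb(bs), at 0.676, lay farther away than all 5 genes. The measure takes in the size of the cell type difference. A gene with a smaller rise in platelets, such as Alas2 (4.75), therefore lies farther away whatever its EV differences. Clec1b differed from PBS in platelets by 0.09 with CTC41.5G-EVs and by -0.19 with CTC41-EVs, so nearness does not mean a like EV pattern. The 5 genes are named as a description.

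The next comparison asked whether globin signals differed with EVs. In platelets, 3 of the 4 adult globin probes stood about 1 log2 unit above PBS on both EV arrays, and the other, Hbb(bs), stood above PBS by less. No replicate exists for any of these arrays, so these are differences between single pools with no test. Genes of haem synthesis and of the red cell membrane did not show such differences on the same arrays.

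Hba(a1) stood 1.09 above PBS with CTC41.5G-EVs and 1.23 above it with CTC41-EVs, or 2.13-fold and 2.35-fold. Hba(a2) stood 0.97 and 1.12 above PBS in the same order of EVs, or 1.96-fold and 2.17-fold. Hbb(bt) stood 1.05 and 1.14 above PBS, or 2.07-fold and 2.20-fold, and Hbb(bs) 0.39 and 0.30 above it, or 1.31-fold and 1.23-fold. The 2 EV comparisons share the PBS array and are not independent of each other. Among 15182 probes whose platelet mean reached the 75th percentile of all probes (5.07), 2.11% stood at least 1.5-fold above PBS with CTC41.5G-EVs and 1.96% with CTC41-EVs, while 2.61% and 4.96% stood as far below it. Of the 5 globin probes that reached this level, 3 stood at least 1.5-fold above PBS with either EV and 0 stood at least 1.5-fold below it, and 0.652% of all probes stood above it with both. By rank of the difference, Hba(a1), Hbb(bt) and Hba(a2) were numbers 53, 59 and 75 with CTC41.5G-EVs and numbers 34, 49 and 53 with CTC41-EVs.

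Between the EV types the adult probes lay close together. CTC41.5G-EVs minus CTC41-EVs gave -0.14 for Hba(a1), -0.15 for Hba(a2), -0.09 for Hbb(bt) and 0.10 for Hbb(bs). After quantile normalization the signs of Hba(a1) and Hbb(bs) turned, to 0.04 and -0.12. At least 1.5-fold higher or lower were 0 globin probes, against 5.4% and 3.29% of all probes in this comparison.

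The size of the differences depended on how arrays were scaled. After quantile normalization, which replaces a signal by the mean signal of its rank, Hba(a2) stood 0.10 above PBS with CTC41.5G-EVs and 0.13 above it with CTC41-EVs, and both were under 1.5-fold. Hba(a1) stood 0.76 and 0.73 above PBS in that setting and Hbb(bt) 0.69 with either EV, still over 1.5-fold. The rank of Hba(a2) on the platelet arrays was between 5 and 8 in all 3 treatments.

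**Figure D3:**
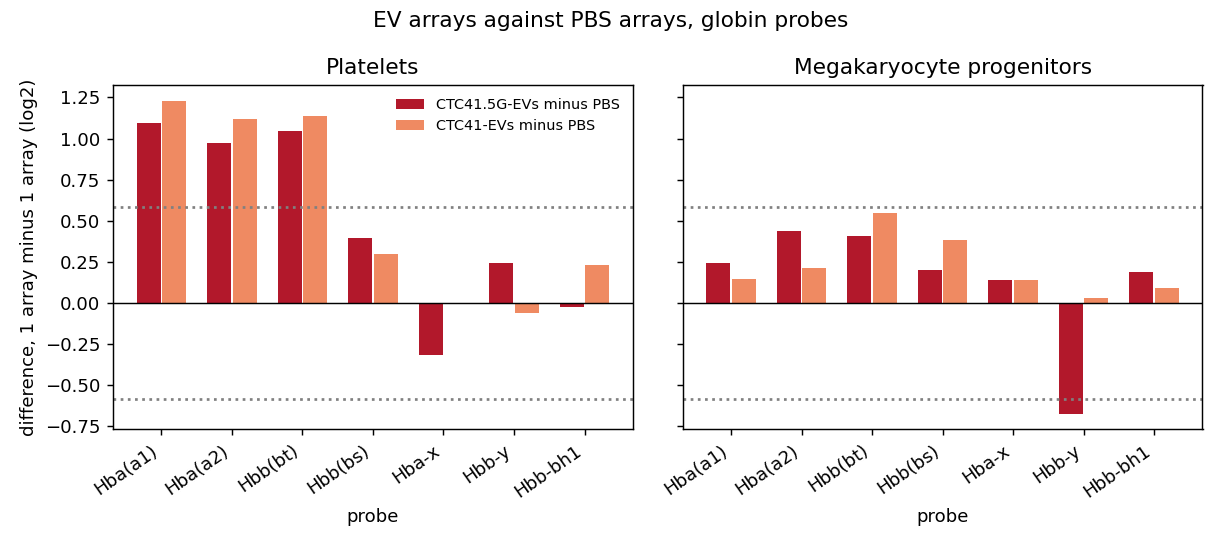
Log2 difference of each EV array from the PBS array of the same cell type for the 7 globin probes, platelets left and progenitors right, with dotted lines at 1.5-fold; each bar is 1 array minus 1 array. In platelets the bars of Hba(a1), Hba(a2) and Hbb(bt) reach 0.97 to 1.23, and in progenitors the 4 adult probes lie between 0.15 and 0.55.

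Red cell genes on the same platelet arrays gave a background for this. Alas2 read 9.85, 9.82 and 9.88 in platelets (CTC41.5G-EVs, CTC41-EVs and PBS), differences of -0.03 and -0.07 from PBS. Fech differed from PBS by -0.19 and -0.11, Hba-ps4 by -0.05 and -0.09, and Slc4a1 by 0.08 and -0.40, with CTC41.5G-EVs and CTC41-EVs in that order. These 4 transcripts were named for their cell type difference and do not stand for whole lists. Among enzyme and maturation genes that reached the 75th percentile, differences from PBS ran from -0.36 to 0.25 with CTC41.5G-EVs. With CTC41-EVs they ran from -0.56 to 0.34. Among membrane genes at this level the ranges were -0.29 to 0.30 and -0.40 to 0.09. The part of red cells in the globin differences was not tested. At least 1.5-fold above PBS were 0 of 7 haem synthesis genes, 0 of 11 membrane genes, 0 of 15 enzyme and maturation genes, 0 of 12 globin regulators and 0 of 7 other globin family genes with either EV, of those that reached the 75th percentile. Fth1, the ferritin heavy chain, was the 1 of 6 iron genes that did, 0.88 above PBS with CTC41.5G-EVs and 0.26 with CTC41-EVs. Summed signals (log2) of haem synthesis genes were 10.82, 10.83 and 10.90 on the CTC41.5G-EVs, CTC41-EVs and PBS arrays, and those of membrane genes 10.21, 9.98 and 10.15.

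Platelet genes differed from PBS as well, by less than the 3 globin probes, and markers of white cells are given beside them. The 12 platelet and megakaryocyte markers had a median difference of 0.37 from PBS with CTC41.5G-EVs, with 12 of 12 above it, and of -0.15 with CTC41-EVs, with 2 of 12 above it. Pf4, nearest to the globins in pattern, stood 0.69 and 0.43 above PBS, and Ppbp 0.67 and 0.32. In the order CTC41.5G-EVs, CTC41-EVs and PBS, the 13 neutrophil markers summed to 9.07, 8.89 and 8.84. The 13 monocyte and macrophage markers summed to 10.48, 10.33 and 10.46. Such sums follow the brightest genes, and Lyz2 alone read 10.02, 9.77 and 9.94. Of 5 neutrophil markers that reached the 75th percentile, 3 stood above PBS with CTC41.5G-EVs and 2 with CTC41-EVs. Under that level Mmp8 stood 0.96 and 0.24 above PBS, Ngp 0.81 and 0.69, and Ltf 0.62 and 0.03. The others under it differed less from PBS: Elane by 0.05 and 0.09, Ctsg by 0.12 and 0.00, and Mpo by 0.10 and -0.12. Lcn2 differed by 0.05 and -0.01, and Cebpe by -0.07 and -0.06. The part of other cells in the globin differences was not tested.

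**Figure D4:**
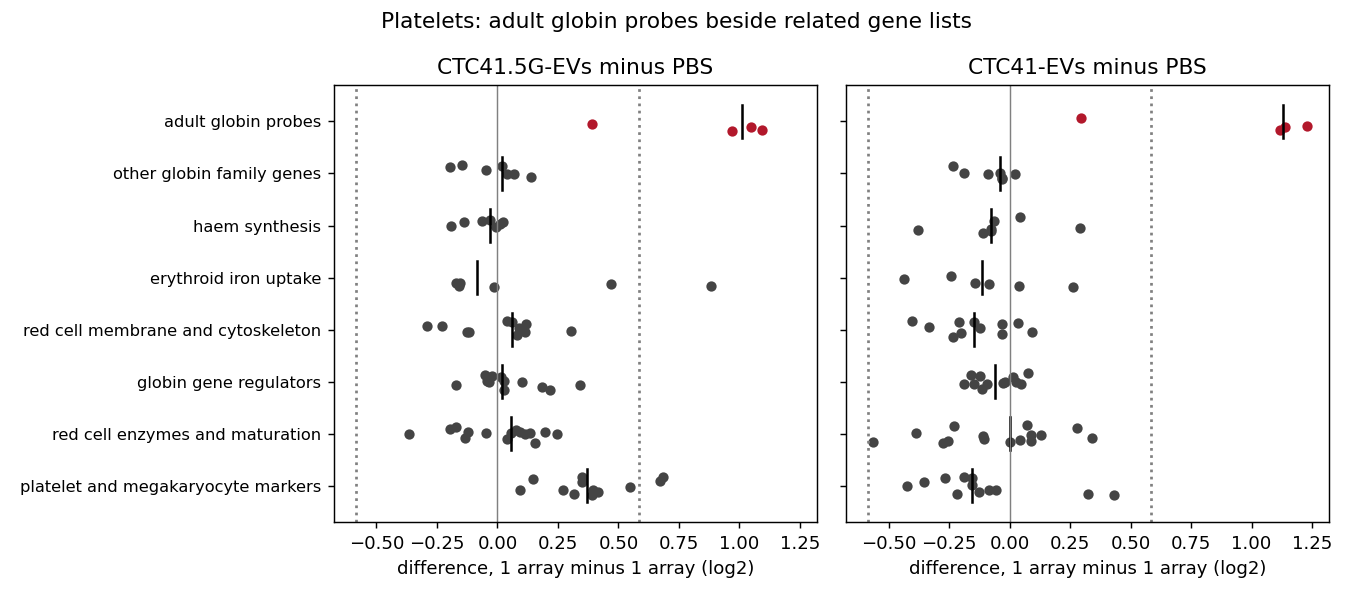
Log2 difference of the CTC41.5G-EVs array (left) and the CTC41-EVs array (right) from the PBS array in platelets for the 4 adult globin probes and for list genes whose platelet mean reached the 75th percentile; each point is a probe, the bar is the median and dotted lines mark 1.5-fold. The adult globin probes have medians of 1.01 and 1.13, and the red cell and haem lists have medians between -0.15 and 0.06.

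In progenitors the adult globin probes also read lowest on the PBS array, within 1.5-fold. Hba(a1) stood 0.24 above PBS with CTC41.5G-EVs and 0.15 above it with CTC41-EVs, and Hba(a2) 0.44 and 0.21. Hbb(bt) stood 0.41 and 0.55 above PBS and Hbb(bs) 0.20 and 0.38. In this cell type all probes that reached the 75th percentile had a median of 0.12 above PBS with CTC41.5G-EVs and 0.05 with CTC41-EVs. Of these probes 8.32% stood at least 1.5-fold above PBS with CTC41.5G-EVs and 4.97% with CTC41-EVs, while 2.39% and 0.881% stood as far below it. Of the 4 globin probes at this level 0 stood 1.5-fold above or below PBS. Between the EV types the adult probes differed by -0.18 to 0.23, and 0 were past 1.5-fold, against 2.14% of all probes higher and 2.23% lower with CTC41.5G-EVs.

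The embryonic genes showed no common direction. In platelets Hba-x differed from PBS by -0.32 with CTC41.5G-EVs and by -0.00 with CTC41-EVs, Hbb-y by 0.24 and -0.06 and Hbb-bh1 by -0.02 and 0.23. In progenitors Hba-x differed by 0.14 with either EV and Hbb-bh1 by 0.19 and 0.09. Hbb-y differed by -0.67 from PBS in progenitors with CTC41.5G-EVs, or 1.59-fold lower, and by 0.03 with CTC41-EVs. Its progenitor mean of 5.01 lay under the 75th percentile of 5.07, so it was not among the probes counted.

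Averaged over both cell types, where the model leaves 2 residual degrees of freedom, limma called 0 probes for CTC41.5G-EVs against PBS, 0 for CTC41-EVs against PBS and 0 between the EV types (0% each). At an unadjusted p under 0.05 there were 2282, 1128 and 2041 probes of 36344. Hbb(bt) differed from PBS by 0.73 (SE 0.24, adjusted p = 0.781) with CTC41.5G-EVs and by 0.84 (SE 0.24, adjusted p = 0.9999) with CTC41-EVs. For Hba(a2) the differences were 0.71 and 0.66 (SE 0.27 each), for Hba(a1) 0.67 and 0.69 (SE 0.31 each) and for Hbb(bs) 0.30 and 0.34 (SE 0.19 each). All 4 were positive, and none passed the correction over all probes. The 4 probes share the same arrays, and within each cluster they name the same genes, so their signs are not independent. The residual of this model also holds any EV effect that differs between the cell types, which cannot be tested apart with 1 array per group.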

How the data were processed

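The deposited table held log2 signals of 72688 probes on 6 Clariom D Mouse arrays, 1 array per group. Per the submitters' processing notes, the authors used Affymetrix Expression Console 1.4.1.46. Per the design text, the MAS5.0 algorithm was used, so how arrays were scaled to each other is unclear, as is the genome build. RNA input is stated as 3 ng and as 5 ng in different protocols. The log2 values were used as deposited by the authors, with no pseudocount. Probes took symbols from the platform annotation, updated through RefSeq (GRCm38.p6). Probes naming several genes were kept, and list genes used probes naming 1 gene, the brightest where there were several.

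limma 3.58.1 in R 4.3.3 fitted cell type and treatment as additive terms, with an intensity trend, to the probes whose mean reached the 50th percentile (4.23), and p-values were adjusted over all of them. It was checked on simulated data. An exact Wilcoxon test cannot go below p = 0.1 with 3 arrays against 3. EV comparisons within a cell type were 1 array against 1 and had no test. P-values and SEs rest on the spread that the additive model leaves between these arrays, as no group has a replicate. limma draws the variance of each probe towards a trend over all probes tested. Array number limits the precision. Named genes were all member probes, up to 3 called genes per list and direction, 6 regulators of globin genes, the 5 nearest patterns and other list members given as examples, chosen after their values were seen. Members and lists were chosen with earlier results of these data known. Upstream sequences are RefSeq's, read in Python 3.11.15 and aligned with Biopython 1.88.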

Additional observations from a re-analysis of the deposited data

Results flagged for a closer look

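For some globin probes the EV difference had opposite signs in the 2 cell types. Each rests on 1 array against 1 array per cell type, and the difference between cell types was not tested. Hbb-y gave 0.24 in platelets and -0.67 in progenitors for CTC41.5G-EVs minus PBS (0.91 apart), 0.31 and -0.70 for CTC41.5G-EVs minus CTC41-EVs (1.01 apart), and -0.06 and 0.03 for CTC41-EVs minus PBS (-0.0911 apart). Hba-x gave -0.32 in platelets and 0.14 in progenitors for CTC41.5G-EVs minus PBS (-0.46 apart), -0.00 and 0.14 for CTC41-EVs minus PBS (-0.14 apart), and -0.31 and 0.00 between the EV types (-0.32 apart). Hbb-bh1, below the floor, gave -0.02 and 0.19 for CTC41.5G-EVs minus PBS (-0.21 apart) and -0.25 and 0.10 between the EV types (-0.35 apart). Between the EV types, platelets and progenitors gave -0.14 and 0.10 for Hba(a1) (-0.24 apart), -0.15 and 0.23 for Hba(a2) (-0.38 apart) and 0.10 and -0.18 for Hbb(bs) (0.28 apart).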

How the results depend on the processing

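The 4 adult globin probes were called higher in platelets in each of 14 limma alternatives, with log2 differences from 5.34 to 8.19 and adjusted p of at most 0.00156. The count of globin probes called higher was 4 to 5 when 1 array was left out, and Hbb-y was the 1 that was lost, without either CTC41.5G-EVs array. Leaving out the platelet or the progenitor array of a treatment gave the same difference for each globin probe, so these settings are not all distinct. Counts over all probes depended on scaling. Against 4658 called higher and 12750 lower (26.8% higher), there were 6215 and 7237 after quantile normalization (46.2%), 7052 and 6216 with equal medians (53.1%) and 11896 and 3593 with olfactory receptor centring (76.8%). The median difference of all probes was -0.06, -0.00 and 0.34 in these settings, against -0.38 as deposited. At a 90th percentile floor 2229 were higher and 3169 lower, and fewer probes were tested (7269). Without a floor 19705 were lower of 72688 tested, and among probes with a symbol 5577 of 20722. The exact Wilcoxon test called 0 either way, as its smallest p is 0.1. Leaving out 1 array gave 4525 to 4665 higher and 11617 to 13152 lower. With EVs averaged, 0 probes were called in all 11 settings, with a smallest adjusted p of 0.0586. Within a cell type and over the 3 scalings, 124 of 126 EV differences kept their side of 1.5-fold and 120 kept their sign. Most of them were under 1.5-fold as deposited, and equal medians and olfactory receptor centring only shift each array by a constant. These counts are therefore a weak check. Quantile normalization cut the globin probes at least 1.5-fold above PBS in platelets from 3 to 2 with either EV. The differences that lost 1.5-fold were those of Hba(a2) against PBS in platelets with CTC41.5G-EVs and CTC41-EVs (0.10 and 0.13). The difference of Hbb(bt) between the EV types in platelets came to 0 after quantile normalization. Those that turned were all between the EV types: in platelets Hba(a1) (0.04) and Hbb(bs) (-0.12) after quantile normalization, and in progenitors Hba-x in each scaling (-0.06 with quantile normalization and with equal medians, -0.09 with olfactory receptor centring). The causes were not tested. The treatment term pairs each platelet array with the progenitor array of the same treatment, and without it 4658 probes were higher and 12668 lower.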
